A study of Mus musculus with 4 samples.

Results

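Sphingomyelin is a phosphocholine-bearing sphingolipid of the plasma membrane, and the enzymes that make and break it set how much of it is turned into ceramide. Sphingomyelin synthases move phosphocholine onto ceramide, Sgms1 in the Golgi and Sgms2 at the plasma membrane and Golgi. Sphingomyelinases run the other way and release ceramide. Smpd1 does this in the lysosome at acid pH, while Smpd2, Smpd3 and Smpd4 are neutral enzymes of other membranes. Smpd3 (neutral sphingomyelinase 2) is abundant in brain and is known for its part in exosome release and in bone and cartilage growth. Asah1, the lysosomal acid ceramidase, takes the next step and splits ceramide into sphingosine and a fatty acid.

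These 7 genes, Smpd1, Smpd2, Smpd3, Smpd4, Sgms1, Sgms2 and Asah1, were taken by symbol from the 26301 genes of a count table of mouse embryonic stem cells (ESCs). All 7 were among the 15444 genes that passed the filter on low counts. The group was proposed with the difference between Rest-/- and WT ESCs already known, so for the members that difference is a description and is not taken as evidence. RNA had been sequenced from 2 libraries of the WT line N6 and 2 of the REST-/- line N8, in which the gene for the transcriptional repressor REST is disrupted. Both lines were grown with serum and LIF on irradiated feeder fibroblasts and were passaged on gelatin to remove feeders before RNA extraction. The labels call the libraries of a line biological replicates, and each genotype is a single line, so that genotype and line cannot be told apart. The spread given below is therefore the spread between libraries of 1 line.

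Library totals ran from 22293966 to 30953863 counts on genes, and a floor of 3 counts was 0.0969 to 0.135 CPM (counts scaled to library size, here with edgeR's TMM factors). Rest, the targeted gene, was at 255 and 233 CPM in WT and at 164 and 176 CPM in Rest-/- ESCs. That is -0.52 on the log2 scale (standard error 0.13, adjusted p = 0.526 by the quasi-likelihood test of edgeR), and counts per gene do not tell which exons were read. All 10 pluripotency markers examined passed the filter, and their summed level was 4954 to 5083 CPM in WT and 4252 to 4393 CPM in Rest-/- ESCs. Of 10 feeder fibroblast markers 8 passed, with a summed level of 28.3 to 40.6 CPM in WT, 128 CPM in Rest-/- replicate 1 and 26.4 CPM in Rest-/- replicate 2, and Lum was at 0 throughout. The summed level of 10 primitive endoderm markers was 425 to 496 CPM in WT and 644 to 671 CPM in Rest-/- ESCs. That of 8 neuronal markers, of which 6 passed the filter, was 215 to 230 CPM in WT and 254 to 300 CPM in Rest-/- ESCs. Of these 8, 1 was at or below the floor in all libraries. In bulk RNA, a change in the number of cells of a type and a change in RNA per cell cannot be told apart.

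Smpd3 was the member that differed most between the genotypes. Its read count was 89 and 137 in WT and 1426 and 1439 in Rest-/- ESCs. This was 2.87 and 5.12 CPM in WT against 55.2 and 65.0 CPM in Rest-/- ESCs, so the genotypes did not overlap, and the lower Rest-/- library was 10.8 times the higher WT library. The means were 3.99 ± 1.58 CPM (SD, n = 2) and 60.1 ± 6.91 CPM (SD, n = 2), a ratio of 15.0. The fitted log2 fold change was 3.91 (standard error 0.35), the 45th largest among the 15444 genes tested. Within replicate 1 the ratio was 19.2 and within replicate 2 it was 12.7. The gap between these ratios came with the WT libraries, of which replicate 2 was at 1.78 times replicate 1, whereas the Rest-/- libraries were at a ratio of 1.18. Leaving out each library in turn gave log2 fold changes from 3.55 (without WT replicate 1) to 4.38 (without WT replicate 2). Without Rest-/- replicate 1, the library with the high feeder fibroblast markers, it was 4.03. The part of the neuronal and endoderm markers in the difference was not tested.

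Across the table, 9 of 15444 genes (0.0583%) passed the quasi-likelihood test of edgeR at an adjusted p threshold of 0.05. None of the 7 members was among them, and 1036 genes, among the members Smpd3 alone, had an unadjusted p under 0.05. Smpd3 was called by edgeR's exact tests with tag-wise and common dispersion, which called 1.79% and 2.23% of all genes, by DESeq2 (1.54%), with no filter on low counts (0.257%) and with the replicate number as a block (17.0%). It was also called in each fit that left out 1 library, which called 0.455% and 0.711% of genes without WT replicates 1 and 2 and 0.431% and 0.376% without Rest-/- replicates 1 and 2. It was not called with the other scalings, with the stricter filter or with a prior count of 2. The members were selected on this contrast, and nothing is read from these counts.

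**Figure D1:**
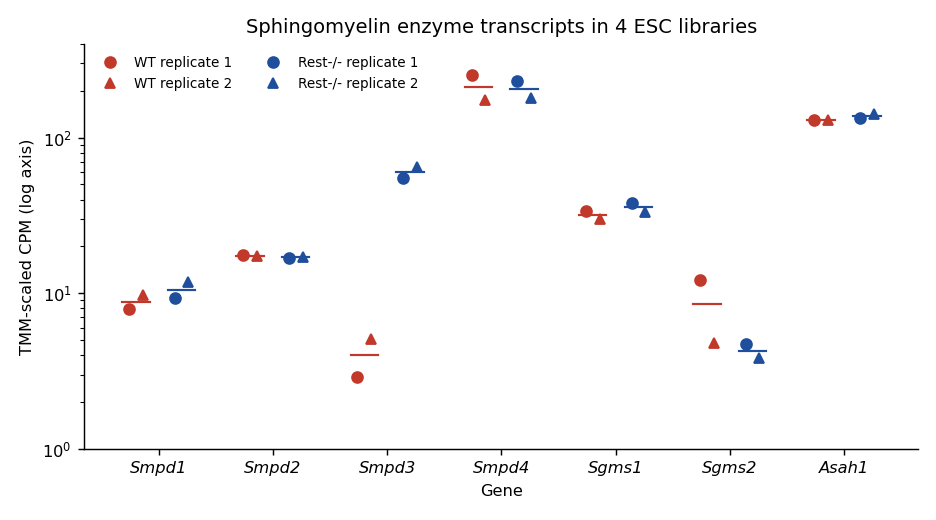
Level of each member in each library, as TMM-scaled CPM on a log axis, with WT in red, Rest-/- in blue, circles for replicate 1, triangles for replicate 2 and a line at the mean of the 2 libraries. Smpd3 moves from 2.87 and 5.12 CPM in WT to 55.2 and 65.0 CPM in Rest-/- ESCs, while WT replicate 1 stands alone for Sgms2 at 12.1 CPM.

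The other sphingomyelinases kept to a narrower range. Smpd4, a neutral sphingomyelinase of the endoplasmic reticulum and nuclear envelope, was the most abundant by CPM, at 251 and 174 in WT and 232 and 181 in Rest-/- ESCs. These values overlapped, and the log2 fold change was -0.041 (standard error 0.24) and ran from -0.28 to 0.24 with each library left out. The libraries of Smpd4 instead parted by replicate number, with replicate 1 at 1.44 times replicate 2 in WT and at 1.28 times in Rest-/- ESCs. Smpd2, the first neutral sphingomyelinase, was at 17.5 and 17.4 CPM in WT and at 16.8 and 17.2 CPM in Rest-/- ESCs. Both Rest-/- libraries were below both WT libraries, by little, with a log2 fold change of -0.042 (standard error 0.19). Its annotated model shares 1391 bp with Mical1 on the opposite strand, and reads from the 2 genes cannot be told apart without strand. The same limit holds for Sgms1, whose model shares 499 bp with the lincRNA 2700046G09Rik on the opposite strand.

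Smpd1, the acid sphingomyelinase, was at 7.88 and 9.74 CPM in WT and at 9.33 and 11.7 CPM in Rest-/- ESCs. The genotypes overlapped, with a log2 fold change of 0.26 (standard error 0.27) that ran from 0.077 to 0.42 with each library left out. Replicate 2 was higher than replicate 1 by a ratio of 1.24 in WT and of 1.26 in Rest-/- ESCs, about as far apart as the genotypes were. Asah1, which acts in the same compartment, was at 129.5 and 129.6 CPM in WT. It was at 134 and 142 CPM in Rest-/- ESCs, above both WT libraries, with a log2 fold change of 0.089 (standard error 0.12).

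The log2 fold changes of the synthases had opposite signs. Sgms1 was at 33.9 and 30.2 CPM in WT and at 38.0 and 33.2 CPM in Rest-/- ESCs, which overlapped, with a log2 fold change of 0.15 (standard error 0.17) that ran from 0.054 to 0.24 with each library left out. Sgms2 was at 12.1 and 4.82 CPM in WT and at 4.72 and 3.84 CPM in Rest-/- ESCs. Both Rest-/- libraries were lower than both WT libraries, but WT replicate 2 stood close to them and WT replicate 1 was at 2.52 times WT replicate 2. The log2 fold change of Sgms2 was -0.98 (standard error 0.52) with all libraries, -0.18 without WT replicate 1 and -1.50 without WT replicate 2. Per kb of coding sequence, the ratio of Sgms1 to Sgms2 was 2.36 and 5.30 in WT and 6.79 and 7.31 in Rest-/- ESCs.

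By the order of the libraries alone, Smpd3 and Asah1 were higher in both Rest-/- libraries than in both WT libraries, as were 16.5% of all genes tested. Smpd2 and Sgms2 were lower in both, as were 15.4% of all genes tested. The median log2 fold change of the 6 members other than Smpd3 was 0.024, with a range of -0.98 to 0.26, and the median over all tested genes was -0.0047.

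Levels of different genes can be compared only per length, and the lengths were a limit here. The GENCODE M1 model of Smpd3 holds 1965 coding bases in 1968 exon bases and so almost no untranslated sequence, whereas 28.4% of the 8926 exon bases of Smpd4 and 12.6% of the 10309 exon bases of Sgms1 are coding. The RefSeq gene of Smpd3 on GRCm38 spans 85418 bp, against 10661 bp for the model used here. Reads from untranslated exons of Smpd3, if counted, would be set against a length that leaves those exons out. Levels were therefore computed both per kb of exons and per kb of coding sequence, the latter chosen after the annotation had been seen. Per kb of coding sequence, reads from untranslated exons raise every member, and more so where the coding share is small. The order of genes is therefore approximate on either scale.

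Per kb of coding sequence, Smpd3 was the lowest member in WT, at 2.03 ± 0.81 CPM per kb (SD, n = 2). Above it came Smpd1 at 4.69 ± 0.70, Sgms2 at 7.73 ± 4.71, Smpd2 at 13.9 ± 0.040, Sgms1 at 24.7 ± 2.01, Smpd4 at 84.0 ± 21.6 and Asah1 at 99.5 ± 0.049 CPM per kb. Smpd1 and Sgms2 were not separated by their libraries, and neither were Smpd4 and Asah1 beyond the spread of Smpd4. In Rest-/- ESCs Smpd3 was at 30.6 ± 3.52 CPM per kb, which overlapped Sgms1 at 27.5 ± 2.61 and lay under Smpd4 at 81.6 ± 14.3 and Asah1 at 106 ± 4.19. Sgms2 was then the lowest, at 3.91 ± 0.57, followed by Smpd1 at 5.60 ± 0.91 and Smpd2 at 13.5 ± 0.20 CPM per kb.

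Per kb of exons the order differed. In WT the lowest was Sgms2 at 1.44 ± 0.88 CPM per kb, with Smpd3 next at 2.03 ± 0.80, and these overlapped. In Rest-/- ESCs Smpd3, at 30.5 ± 3.51 CPM per kb, came above Smpd4 at 23.2 ± 4.06 and below Asah1 at 40.6 ± 1.61. Among the 13873 tested protein-coding genes ranked per kb of coding sequence within each library, Smpd3 stood at the 16.3 and 21.8 percentiles in WT and at the 61.9 and 65.9 percentiles in Rest-/- ESCs. For comparison, Asah1 stayed between the 87.1 and 88.4 percentiles in all 4 libraries.

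The makeup of the sphingomyelinase transcripts followed from these levels. Per kb of coding sequence, Smpd3 made up 1.23% and 2.88% of the summed level of Smpd1, Smpd2, Smpd3 and Smpd4 in the WT libraries. It made up 20.3% and 26.6% in the Rest-/- libraries. Smpd4 was the largest part in every library on this scale, at 79.8 ± 5.29% (SD, n = 2) in WT and 61.9 ± 6.33% in Rest-/- ESCs. Per kb of exons the share of Smpd3 was 6.31 ± 3.31% (SD, n = 2) in WT and 49.4 ± 5.50% in Rest-/- ESCs, where it exceeded the 37.4 ± 6.69% of Smpd4. The share of Smpd3 was higher in both Rest-/- libraries on either scale, but which gene led in Rest-/- ESCs turned on the length used. The summed level of the 4 genes per kb of coding sequence was 119 and 90.4 CPM per kb in WT and 138 and 124 CPM per kb in Rest-/- ESCs. Per kb of exons it was 36.8 and 30.04 CPM per kb in WT and 61.7 and 62.0 CPM per kb in Rest-/- ESCs. Without division by length it was 280 and 206 CPM in WT and 314 and 275 CPM in Rest-/- ESCs, which overlapped, so the size of the difference in the sum depended on the length used.

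**Figure D2:**
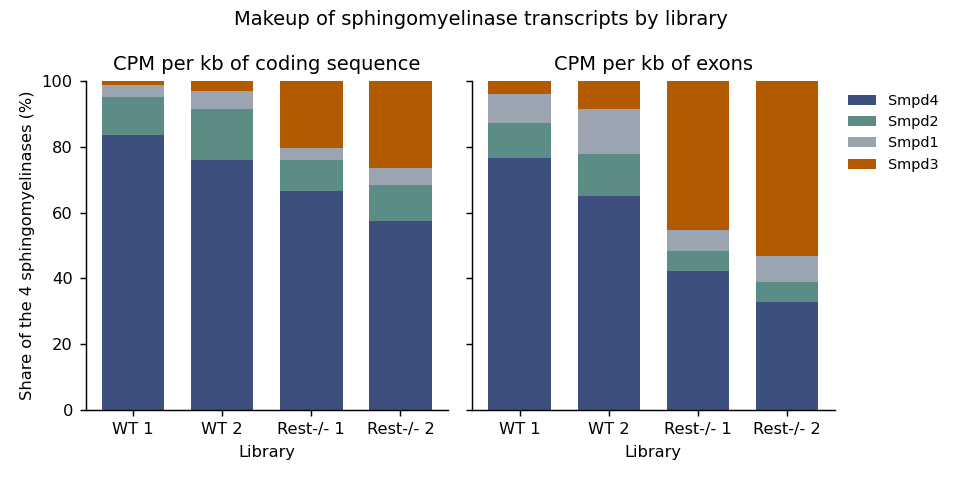
Share (%) of each of the 4 sphingomyelinase genes in their summed level in each library, per kb of coding sequence on the left and per kb of exons on the right, with libraries on the horizontal axis. The Smpd3 segment is 1.23% and 2.88% in WT and 20.3% and 26.6% in Rest-/- ESCs on the left, and it is larger in every library on the right.

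The difference by replicate number was set beside that by genotype for each member. For 3 of the 7 members the mean difference between replicates 1 and 2, on the log2(CPM + 0.5) scale, was larger in size than the mean difference between genotypes, as it was for 64.5% of all tested genes. The 3 were Smpd1, Smpd4 and Sgms1. The replicate difference had the same sign in both genotypes for 6 of the 7 members, against 82.5% of all tested genes. Its median size was 0.30 over the members and 0.29 over all tested genes, and the median size of the genotype difference was 0.15 and 0.16.

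**Figure D3:**
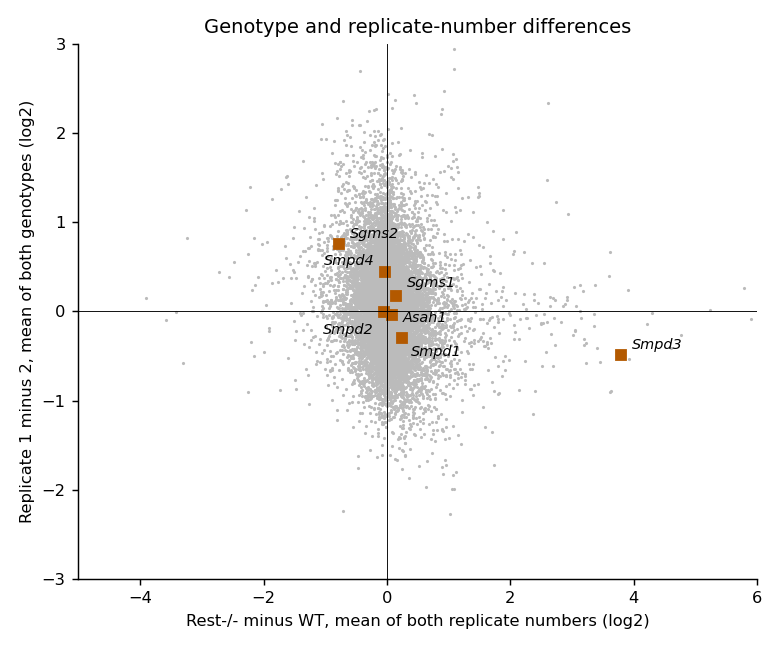
Mean log2(CPM + 0.5) difference between genotypes (horizontal, Rest-/- minus WT) and between replicate numbers (vertical, replicate 1 minus 2) for each tested gene in grey and each member as a square. Smpd3 lies far to the right, and the other members lie within the cloud, with Smpd4, Sgms1 and Sgms2 above the horizontal line.

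The rest of sphingolipid metabolism was taken as a list of 55 genes grouped by role, from the first step of synthesis to sphingosine 1-phosphate signalling. Of the 48 that were tested, none was called in edgeR's quasi-likelihood test and none had an unadjusted p under 0.05. In the exact tests and in DESeq2 none was called either, and 5 were called lower with the replicate number as a block, namely Sgpl1, Gm2a, Samd8, Cers2 (listed as Lass2) and Glb1, where the block called 8.50% of all genes lower. By direction, 19 were above 0 (39.6%, against 49.2% of all tested genes) and 29 below, with a median log2 fold change of -0.061 against -0.0047 over all tested genes. The range was -0.58 to 1.08, so no gene of the list came near the 3.91 of Smpd3. In 6 genes both Rest-/- libraries were above both WT libraries and in 10 they were below, beside 16.5% and 15.4% of all tested genes.

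By role, the 3 tested subunits of serine palmitoyltransferase, which starts sphingolipid synthesis, were all below 0 (median -0.18), as were its 3 Ormdl regulators (median -0.070). Of 8 tested genes of ceramide synthesis 7 were below 0 (median -0.051). Of the 10 genes of lysosomal glycosphingolipid breakdown 7 were below 0 (median -0.18), and 3 of 4 other ceramidases were (median -0.27). Ceramide transfer and the other head group enzymes had 4 of 6 genes above 0 (median 0.070), and the other sphingomyelinase family members and partner 2 of 2 tested (median 0.034). The enzymes and transporters of sphingosine 1-phosphate had 5 of 7 genes above 0 (median 0.049), and its receptors 3 of 5 (median 0.075). These are groups of 2 to 10 genes, and of all tested genes 49.2% were above 0. None of the groups held a gene called in edgeR's quasi-likelihood test without the block.

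The largest positive values among genes whose genotypes did not overlap were those of S1pr4, a sphingosine 1-phosphate receptor, at 1.08 (standard error 0.42), Sgpp2, a sphingosine 1-phosphate phosphatase, at 0.61 (standard error 0.39), and the alkaline ceramidase Acer2 at 0.49 (standard error 0.31). S1pr4 was at 0.614 and 0.821 CPM in WT and at 1.28 and 1.76 CPM in Rest-/- ESCs, with an adjusted p of 0.759 in edgeR's quasi-likelihood test. The largest negative values, again among genes whose genotypes did not overlap, were those of the ceramidase Acer1 at -0.58 (standard error 0.48), the desaturase and hydroxylase Degs2 at -0.49 (standard error 0.37) and the lysosomal galactosidase Glb1 at -0.33 (standard error 0.16). Glb1 was the most abundant of these, at 60.9 and 70.3 CPM in WT and 49.0 and 55.2 CPM in Rest-/- ESCs, with an adjusted p of 0.893 in edgeR's quasi-likelihood test. The untested genes were Sptlc3, Sptssb, Cers1, Cers3, Smpd5, Smpdl3a and Enpp7, of which 2 were at 0 in all libraries.

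**Figure D4:**
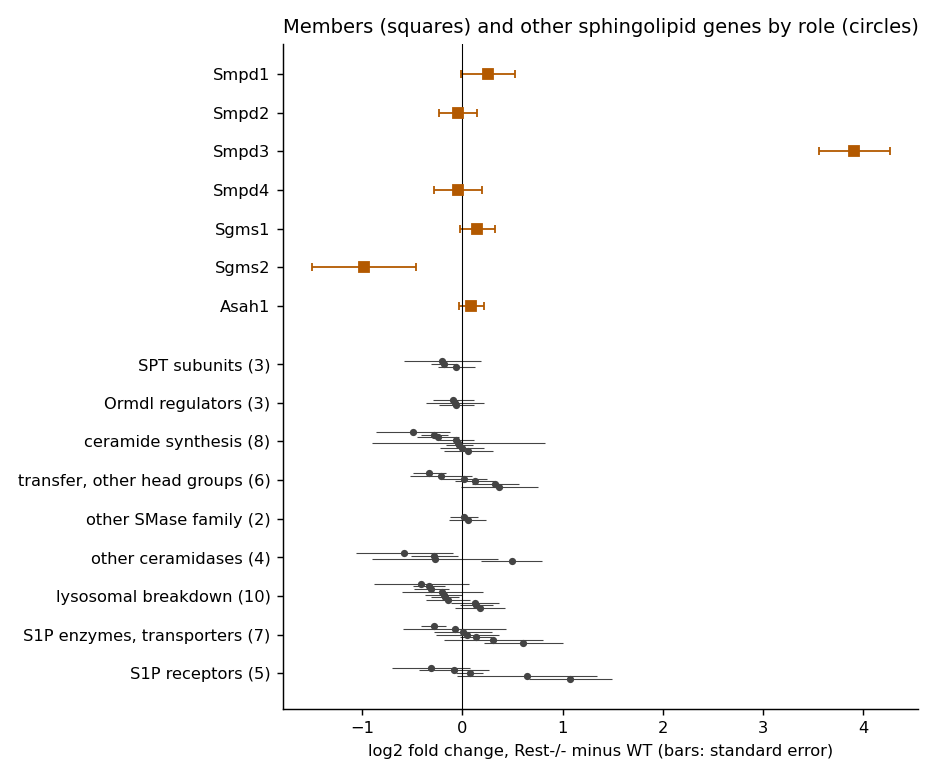
Log2 fold change (Rest-/- minus WT, horizontal) with its standard error for the 7 members as squares and for the 48 other tested sphingolipid genes as circles, one line per role with the number of genes in brackets (SPT, serine palmitoyltransferase; S1P, sphingosine 1-phosphate; SMase, sphingomyelinase). Smpd3 sits at 3.91, and the circles lie between -0.58 and 1.08.

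Smpd3 (Entrez gene 58994) lies on the minus strand of chromosome 8 of NCBIM37 (mm9) from 108779159 to 108789819, inside an intron of the lincRNA Gm17245 on the same strand. The 6 nearest tested genes lay far from it in value. Prmt7, an arginine methyltransferase gene that converges on Smpd3 and ends 2.46 kb from it, was at -0.21 on the log2 scale (standard error 0.37), with 172 and 287 CPM in WT and 148 and 249 CPM in Rest-/- ESCs. Beyond it Slc7a6os was at -0.21 and Slc7a6 at 0.033. On the other side Zfp90, 149 kb away, was at -0.17 (standard error 0.21), Cdh3 at -0.36 and LOC100042734 at -0.17. None of the 6 was called in edgeR's quasi-likelihood test. Asah1 lies on the same chromosome, from 42425551 to 42460127. The median over the 784 tested genes of chromosome 8 was -0.13, and those of the other members' chromosomes ran from -0.012 to 0.031. The other members lie on separate chromosomes of the same build, Smpd1 on 7 from 112702874 to 112706902, Smpd2 on 10 from 41205448 to 41210175 and Smpd4 on 16 from 17619447 to 17644921. Sgms1 lies on 19 from 32197217 to 32464204 and Sgms2 on 3 from 131021903 to 131047858.

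**Figure D5:**
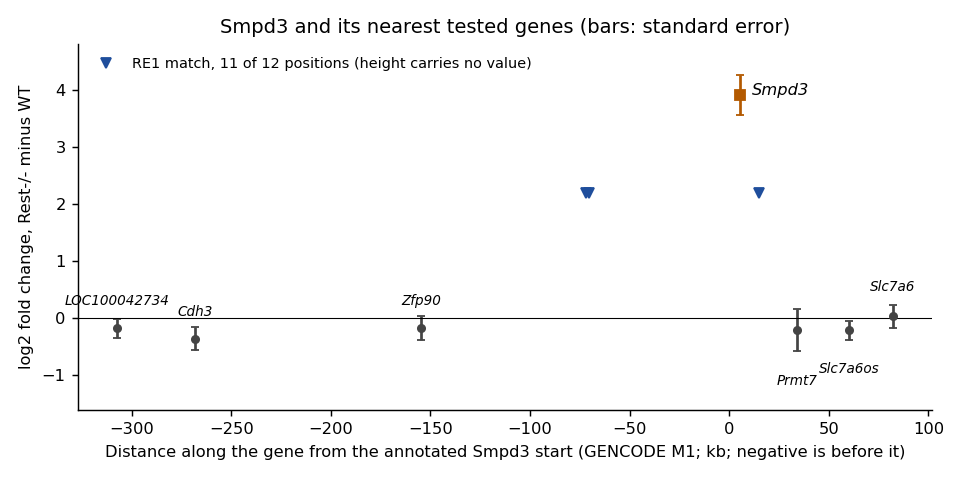
Log2 fold change with its standard error for Smpd3 (square) and the 3 nearest tested genes on each side (circles), placed by distance in kb from the annotated start of Smpd3 to the middle of each gene, and the 3 RE1 matches at 11 of 12 positions whose sequences are given, as triangles, whose height carries no value. The neighbours lie between -0.36 and 0.033, and Smpd3 is at 3.91.

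REST binds DNA at RE1 elements, and mm9 was searched on both strands for the contiguous RE1 motif CAGNACCNNGGACAG, of which 12 of 15 positions are informative. A match at all 12 positions occurred 1304 times in the genome, and 20339 places matched at 11 or more. None of the 7 members had a match at all 12 within 20 kb of an annotated start, which 4.41% of 14506 annotated tested genes had, or within 100 kb of its model, which 17.1% had. The nearest one to Smpd3 was 572 kb away from its start. Starts are those of GENCODE M1, and the RefSeq genes of Smpd3, Sgms2 and Asah1 span more than these models, so their starts may lie elsewhere. At 11 or more positions, 6 of the 7 members had a match within 20 kb, all but Smpd1, as did 44.2% of the tested genes, and Sgms1 and Smpd2 had one within 1 kb, as did 6.18%. Half-sites spaced in other ways were not searched. A match, or the lack of one, is a description of the letters alone, and REST binding was not tested here.

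Within 100 kb of its model Smpd3 had 4 matches at 11 positions, and 33.9% of tested genes had 4 or more. The 3 given here lie in introns of Gm17245, and the first also lies in an intron of Prmt7. They are printed with the strand on which they were read, because they lie near the gene with the large difference. Distances are from the start of the coding model, and with a RefSeq gene of 85418 bp the last 2 may lie inside Smpd3 rather than upstream of it. Capitals mark the 15 bases of the motif, and each name gives the motif base, its position from 1 at the 5′ end of the match and the base found.
A2T, 15.0 kb past the annotated start, chr8:108774798-108774812, plus strand: agctcttCTGCACCAGGGACAGgcagcaa
G11C, 70.6 kb before the annotated start, chr8:108860458-108860472, plus strand: tatggcaCAGGACCCAGCACAGcacagcc
A5T, 71.8 kb before the annotated start, chr8:108861609-108861623, plus strand: gtccctcCAGCTCCACGGACAGatggtgt

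Smpd2 had 7 matches at 11 positions within 100 kb, more than Smpd3, and Sgms1 had 3. For each, a match inside the gene is shown, since these are the members with a match within 1 kb of an annotated start. The match of Smpd2 is in a coding exon and that of Sgms1 in an intron.
Smpd2 A14C, chr10:41207838-41207852, minus strand: cagccagCAGGACCTGGGACCGtttccgt
Sgms1 C13A, chr19:32462395-32462409, plus strand: ccgcacgCAGCACCTCGGAAAGgtgccca

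Among the members, Smpd4, Sgms2, Smpd1 and Asah1 had 3, 3, 2 and 1 such matches within 100 kb. Smpd2 was at -0.042 on the log2 scale beside 7 matches, and Smpd3 at 3.91 beside 4. Since 89.1% of tested genes had at least 1 such match within 100 kb, nothing is read from their number. These are 7 genes, given as a description without a test.

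The genes whose pattern over the 4 libraries was most like that of Smpd3 were found by the Euclidean distance between centred log2(CPM + 0.5) values, over 2 libraries per genotype. Xkr7 was the nearest (distance 0.062), with 1.16 and 2.13 CPM in WT and 25.6 and 31.0 CPM in Rest-/- ESCs. It was followed by 2900083I11Rik (0.15), Sez6 (0.36), Gprin1 (0.47) and Ttc9b (0.55). Their log2 fold changes were 4.11 for Xkr7, 4.45 for 2900083I11Rik, 3.69 for Sez6, 3.93 for Gprin1 and 4.06 for Ttc9b. Values near that of Smpd3 follow from this choice, which used the same 4 libraries. None of these genes was called in edgeR's quasi-likelihood test (adjusted p 0.109 to 0.215).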

How the data were processed

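Reads had been mapped with Subread and assigned to genes with featureCounts, as the paper and the submitters' processing notes say, and mm9 is the build listed in those notes. The values the authors deposited are raw counts per Entrez gene identifier. The annotation and strand setting are not given in the sources used here. The table had 26301 genes, and 368 rows with no identifier and no value were left out. From the counts, TMM factors and edgeR 4.0.16's quasi-likelihood test (filterByExpr, prior count 0.125, Benjamini-Hochberg adjusted p under 0.05, R 4.3.3) were run on all 4 libraries with genotype as the only term. The scripts were tested on simulated data with a fixed dispersion and no difference by replicate number, which does not show how the test behaves on these data. Alternatives used other scalings (RLE, upper quartile, library size), no filter or a stricter filter, the exact tests of edgeR, DESeq2 1.42.0, a prior count of 2, the replicate number as a block and each library left out. Values within a replicate number used log2(CPM + 0.5). Gene positions and lengths came from GENCODE M1 on NCBIM37, and RefSeq spans on GRCm38 were used for length only. Summaries were made in Python 3.11.15 with pandas 2.3.3, numpy 2.4.6 and matplotlib 3.10.9.

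The members and lists were chosen with earlier results of these data known. Named were the 7 members, Rest, called list genes or, with none called, the list genes with the 3 highest and the 3 lowest log2 fold changes among those whose genotypes did not overlap, the 3 nearest tested genes on each side of Smpd3 and the 5 genes nearest to it in pattern. Other list genes named were chosen after their values were seen. Floors cover counting error alone. The sequence of 1 RE1 match near Smpd3 is not reported here.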

Additional observations from a re-analysis of the deposited data

How the results depend on the processing

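The count of genes called moved with the test more than the members' values did. Against 9 calls in edgeR's quasi-likelihood test, 53 were made with no filter beyond 1 count, 3 with at least 10 counts in every library, 277 and 344 in the exact tests with tag-wise and common dispersion, and 238 in DESeq2, and leaving out 1 library gave 60 to 113. With the replicate block 2621 genes were called, Smpd3 among them at a log2 fold change of 3.94, and the median of the sphingolipid list was -0.066. The labels share only a number between the genotypes, with no statement that same-numbered libraries belong together. Deviations of same-numbered libraries had r = 0.81 across 15444 genes, which are not independent. Leaving out each library gave 3.55 to 4.38 for Smpd3 and -0.10 to -0.025 for the list median. The share of Smpd3 among the 4 sphingomyelinases in Rest-/- ESCs was 49.4% per kb of exons, 38.2% per kb of the longest transcript, 23.4% per kb of coding sequence (chosen after seeing the data) and 20.6% without division by length. The log2 fold change of Smpd4 was -0.041 with all libraries, 0.24 and -0.28 when WT replicate 1 or 2 was left out, and -0.23 and 0.12 when Rest-/- replicate 1 or 2 was left out. In the same order of libraries left out, Smpd1 was at 0.11, 0.42, 0.42 and 0.077 against 0.26, and Sgms1 at 0.23, 0.071, 0.054 and 0.24 against 0.15. Smpd2 ranged from -0.062 (without Rest-/- replicate 2) to -0.022 (without Rest-/- replicate 1), and Asah1 from 0.043 to 0.13 with the same libraries left out. No alternative called any of the other 6 members.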

Other observations

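The difference between replicate numbers was larger than that between genotypes for 30 of the 48 tested sphingolipid genes (62.5%), close to the 64.5% of all tested genes. In 39 of the 48 it had the same direction in both genotypes, as in 82.5% of all tested genes. Gm2a, the activator that presents ganglioside GM2 to its hexosaminidase, was at 16.9 and 31.4 CPM in WT replicates 1 and 2 and at 12.2 and 24.2 CPM in Rest-/- replicates 1 and 2. Hexa, a subunit of that hexosaminidase, was at 58.2 and 90.2 CPM in WT and at 43.6 and 85.7 CPM in Rest-/- ESCs, again higher in replicate 2. Sptssa, a small subunit of serine palmitoyltransferase, went the other way, at 27.0 and 16.4 CPM in WT and at 23.7 and 14.1 CPM in Rest-/- ESCs. These 3 genes were chosen after their values were seen.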
